A study of Mus musculus with 6 samples.

Results

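MiR-192, miR-194 and miR-215 are small RNAs that the p53 pathway is known to raise, and they were followed here in the mouse thymus after X-irradiation. The members were chosen by name from 1390 miRNAs in the count table. They are 4 mature strands, mmu-miR-192-5p, mmu-miR-192-3p, mmu-miR-194-5p and mmu-miR-215-5p (mmu for mouse, left out below), and all 4 were in the table. The mice were C57BL wild-type animals aged 5 weeks, with n = 3 libraries of thymus tissue per group. The labels give 3 mice per group but tie no library to a mouse, so p-values measure the spread between these libraries. Irradiated mice received 6 Gy of X-rays (800 cGy/min at a distance of 40 cm) and their thymus was taken 24 h later. Control mice received no X-rays. There is no transgene, deletion or drug treatment in the labels of either group, and the substrain of C57BL is not named.

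Ionizing radiation breaks DNA and activates the transcription factor p53, which in thymocytes, the immature T cells that fill the thymus, leads to cell death. MiR-192, miR-194 and miR-215 are made from a pair of short clusters whose transcription p53 has been reported to increase in tumour cell lines. They are reported to lower cell-cycle genes and Mdm2, the ubiquitin ligase that holds p53 down. In healthy tissue they are best known as abundant miRNAs of intestine, liver and kidney. A miRNA recognises its targets mainly through its seed, bases 2 to 8 from the 5′ end.

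The mature sequences show which members can act on the same targets, and the seed is in capitals (RefSeq, GRCm38.p6, 5′ to 3′). MiR-192-5p and miR-215-5p share the seed UGACCUA, which no other miRNA of the table has, and miR-194-5p has a seed of its own.
mmu-miR-192-5p: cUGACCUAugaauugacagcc
mmu-miR-215-5p: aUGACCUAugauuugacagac
mmu-miR-194-5p: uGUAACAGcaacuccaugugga
mmu-miR-192-3p: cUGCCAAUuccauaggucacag
MiR-192-5p and miR-215-5p are identical at 18 of 21 bases. They differ by C1A, A12U and C20A, with the base of miR-192-5p first and positions counted from 1 at the 5′ end. The difference in the middle of the molecule lets full-length reads of the pair be told apart, though how many mismatches the counting allowed is not stated in the labels or file headers.

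The hairpins show which reads report on which locus, and the mature strands are in capitals (RefSeq, GRCm38.p6, plus strand, 5′ to 3′).
Mir194-2: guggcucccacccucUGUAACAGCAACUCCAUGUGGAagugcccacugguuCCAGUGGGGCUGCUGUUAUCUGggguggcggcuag
Mir192: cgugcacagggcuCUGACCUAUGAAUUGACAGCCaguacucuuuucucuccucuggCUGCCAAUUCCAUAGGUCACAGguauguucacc
Mir194-1: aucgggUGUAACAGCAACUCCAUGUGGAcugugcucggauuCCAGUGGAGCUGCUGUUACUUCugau
Mir215: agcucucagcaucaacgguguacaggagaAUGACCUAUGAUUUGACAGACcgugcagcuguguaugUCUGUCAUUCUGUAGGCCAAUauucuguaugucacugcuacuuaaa
Mir194-2 (chr19:6264643-6264728) and Mir192 (chr19:6264844-6264932) lie 115 bases apart on chromosome 19, between the autophagy gene Atg2a and the long non-coding RNA Gm14963, and overlap neither. Mir194-1 (chr1:185313319-185313385) and Mir215 (chr1:185313581-185313692) lie 195 bases apart on chromosome 1, in an intron of Iars2 and on its opposite strand. On their own strand the non-coding gene 2010103J01Rik runs through both, with Mir194-1 in an intron and Mir215 in an exon (GENCODE M21). MiR-194-5p is the same in both of its hairpins, so its reads cannot be assigned to a locus. MiR-192-5p and miR-192-3p report on chromosome 19, and miR-215-5p on chromosome 1. The opposite strands of the miR-194 hairpins, miR-194-2-3p and miR-194-1-3p, differ at 4 of 22 bases and each report on 1 locus.

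The 6 libraries held 7730641 to 9287017 counts. Levels are CPM, counts relative to the library total after scaling by trimmed-mean (TMM) factors, which ranged from 0.823 to 1.39. Of 519 miRNAs tested, 318 (61.3%) passed an edgeR adjusted p of 0.05, with 144 (27.7%) higher and 174 (33.5%) lower. With upper-quartile factors the split was 206 higher and 139 lower. The labelled tissue was checked with 9 miRNAs of thymocytes and blood cells, which together held 105889 to 174206 CPM in control and 6966 to 11562 CPM in irradiated libraries, and 8 of the 9 were lower. MiR-181a-5p made up most of the control sum, at 61698 to 117812 CPM. The exception was miR-150-5p, which did not pass (log2 change −0.31, edgeR adjusted p of 0.373). The 5 striated-muscle miRNAs summed to 203 to 481 CPM in control and 603 to 20134 CPM in irradiated libraries, and the chief of them, miR-1a-3p, was at 527, 19377 and 13225 CPM in irradiated replicates 1, 2 and 3. MiR-133a-3p had the same order, at 13.8, 419 and 146 CPM. MiR-206-3p did not, at 61.2, 320 and 24.1 CPM, against 3.57 to 13.1 CPM in control. Replicates 2 and 3 thus stood apart from replicate 1 by miR-1a-3p and miR-133a-3p, but not by miR-206-3p. The members' changes and ratios and the median changes of miRNA lists are also given without replicates 2 and 3. This leaves irradiated replicate 1 alone. Its spread is then assumed to equal that of the controls. In whole tissue, fewer cells of a type and less RNA per cell cannot be told apart.

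None of the members passed the test. Of the 4 members, 3 were counted well enough to be tested, and 0 were higher and 0 lower at an edgeR adjusted p of 0.05, against 61.3% of all miRNAs tested. The control and irradiated values overlapped for all 3, whereas 68.6% of tested miRNAs had groups that did not overlap. At an unadjusted p of 0.05 the count in edgeR was also 0, and DESeq2 and limma-voom passed 0 of the 3 as well. The changes were small beside those of other miRNAs. The median size of the log2 change over all tested miRNAs was 1.22, while the members changed by −0.32, −0.56 and 0.55. The intervals do not exclude changes of moderate size, and they are given with each member.

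**Figure D1:**
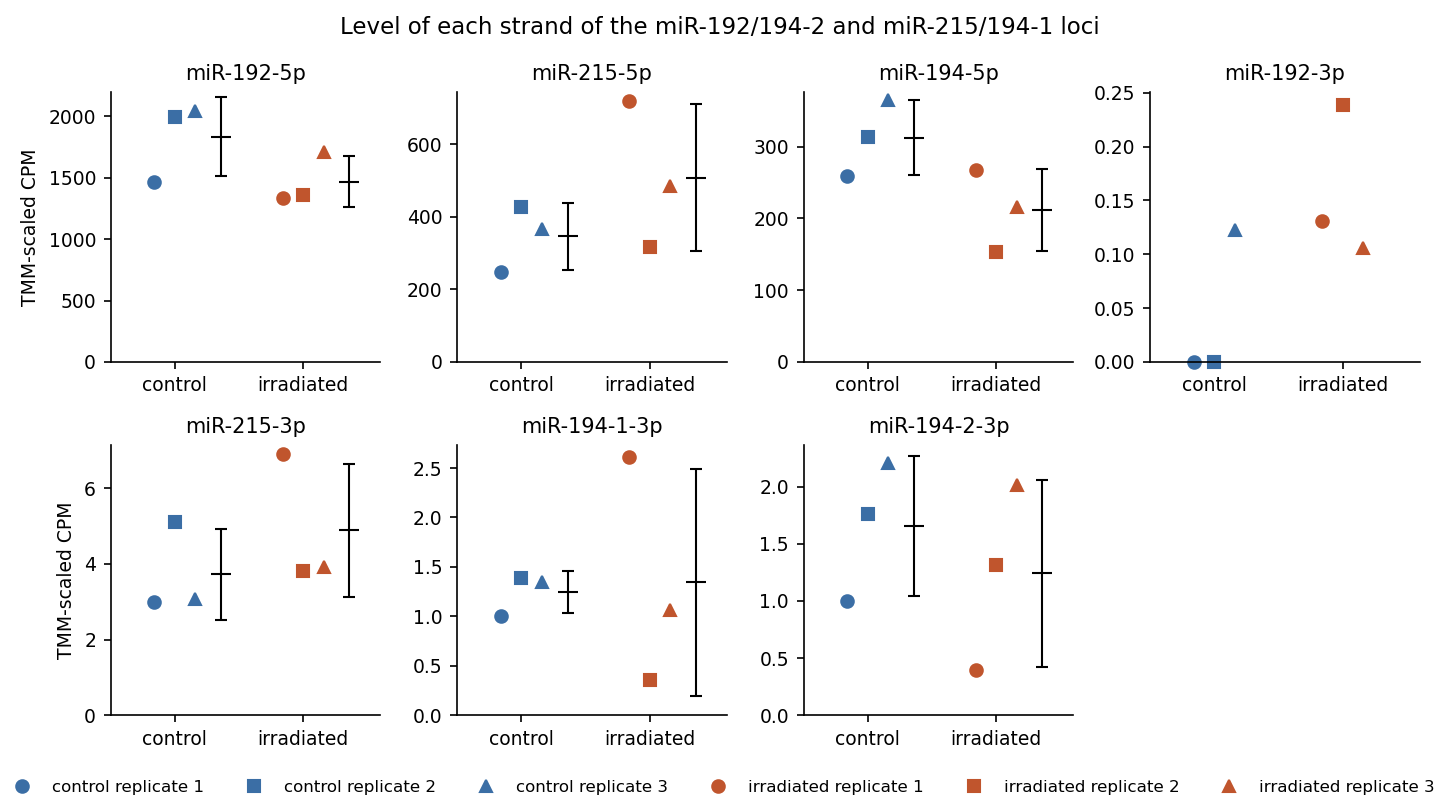
TMM-scaled CPM (y axes, linear from 0) of the 4 members and of the other 3 strands of their loci in each library. Points are libraries (n = 3 per group), bars are mean ± SD (none for miR-192-3p, which had 0 to 2 counts), and control and irradiated points overlap in each panel.

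MiR-192-5p was the most abundant member, at rank 54 of all miRNAs by mean level. It had 10295, 21518 and 16623 counts in control replicates 1, 2 and 3, which gave 1469, 1997 and 2040 CPM. In irradiated replicates 1, 2 and 3 it had 10256, 11383 and 16076 counts, or 1338, 1359 and 1707 CPM. All 3 irradiated libraries lay below control replicates 2 and 3, but irradiated replicate 3 lay above control replicate 1. The means were 1835 ± 318 and 1468 ± 207 CPM (SD, n = 3 per group). The log2 fold change was −0.32 ± 0.24 (SE), with a 95% interval of −0.86 to 0.22 and an edgeR adjusted p of 0.268. On the linear scale the interval runs from 0.550 to 1.16 times the control level. Under TMM factors, levels below or above that range lie outside it. The authors' deposited table gives −0.26 with an adjusted p of 0.521 for this miRNA. With upper-quartile factors the sign turned (0.12, edgeR adjusted p of 0.692). When only miRNAs with a mean of at least 10 CPM were kept, it passed (−0.58, edgeR adjusted p of 0.0491). The change was −0.25 without irradiated replicates 2 and 3.

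MiR-194-5p, a miRNA of liver and intestinal epithelium that comes from both clusters, was at 259.8, 313 and 365 CPM in control replicates 1, 2 and 3. The irradiated replicates 1, 2 and 3 stood at 268, 153 and 215.4 CPM. Irradiated replicates 2 and 3 lay below every control library, and irradiated replicate 1 lay within the control range. The means were 313 ± 52.8 and 212 ± 57.5 CPM (SD, n = 3 per group). The log2 fold change was −0.56 ± 0.29 (SE), with a 95% interval of −1.21 to 0.08 and an edgeR adjusted p of 0.114. This is 0.433 to 1.06 times the control level. The result rested on single libraries. Without irradiated replicate 1 it passed (−0.76, edgeR adjusted p of 0.0284), and leaving out irradiated replicate 2 gave −0.16. Leaving out control replicate 3 gave −0.31, and leaving out both irradiated replicates 2 and 3 gave −0.02. It also passed with the minimum of 10 CPM (−0.82, edgeR adjusted p of 0.0320), and with upper-quartile factors it was −0.10.

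MiR-215-5p, the seed partner of miR-192-5p, had the opposite sign. The control replicates 1, 2 and 3 stood at 247, 428 and 366 CPM. The irradiated replicates 1, 2 and 3 stood at 721, 318 and 484 CPM. Irradiated replicates 1 and 3 lay above every control library, and irradiated replicate 2 lay within the control range. The means were 347 ± 92.1 and 508 ± 203 CPM (SD, n = 3 per group), a log2 fold change of 0.55 ± 0.34 (SE). The 95% interval was −0.22 to 1.31, or 0.861 to 2.49 times the control level, with an edgeR adjusted p of 0.182. Without irradiated replicate 2 it passed (1.00, edgeR adjusted p of 0.0124), and it was 0.21 without irradiated replicate 1. With irradiated replicate 1 as the only irradiated library it was 1.26. It also passed with upper-quartile factors (1.03, edgeR adjusted p of 0.0275), and it was 0.31 with library totals and 0.29 with the minimum of 10 CPM.

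MiR-192-3p, the strand opposite miR-192-5p in the hairpin printed above, was barely counted and fell below the filter of the test. Without that filter it did not pass (edgeR adjusted p of 0.488). It had 0, 0 and 1 counts in control replicates 1, 2 and 3 and 1, 2 and 1 counts in irradiated replicates 1, 2 and 3. Each value lies under the 3 counts that a count of 0 allows, which is 0.278 to 0.428 CPM depending on the library. A change in this strand was not detectable at this depth. The labels describe no molecular identifiers, so this limit and the Wilson intervals below cover counting error only.

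For the 3 tested members the spread between libraries was larger than counting error. Counting error alone would give a coefficient of variation of 0.787% to 2.37%. The measured coefficient of variation was 16.9% to 26.5% in control and 14.1% to 39.9% in irradiated libraries. Scaling mattered in the controls. Without TMM factors the control values of miR-215-5p were 203, 597 and 362 CPM, a coefficient of variation of 51.2% against 26.5% with them.

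**Figure D2:**
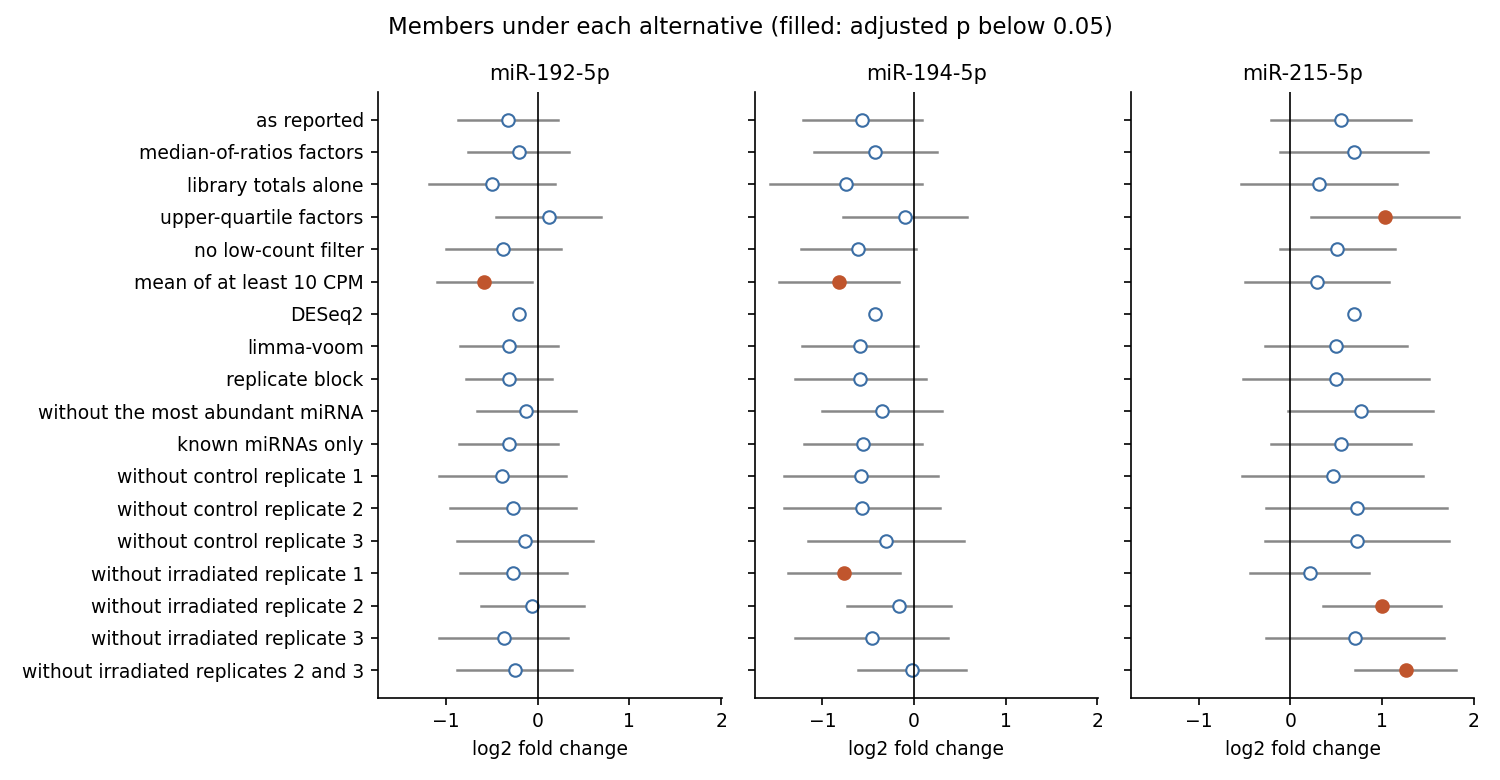
Log2 fold change of irradiated over control (x axis) for miR-192-5p, miR-194-5p and miR-215-5p under each alternative (y axis), with 95% intervals except for DESeq2. MiR-192-5p passes the threshold under 1 alternative, miR-194-5p under 2 and miR-215-5p under 3, and miR-192-5p crosses 0 with upper-quartile factors. Those of miR-215-5p include the fit with irradiated replicate 1 as the only irradiated library.

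Ratios between members of the same library do not depend on the scaling, and both ratios to miR-215-5p had groups that did not overlap. How often ratios of other miRNA pairs do so was not counted. Of single tested miRNAs, 68.6% had groups that did not overlap. The ratio of miR-194-5p to miR-215-5p counts was 1.05, 0.732 and 0.999 in control replicates 1, 2 and 3. It was 0.371, 0.481 and 0.445 in irradiated replicates 1, 2 and 3. The pair thus stood at near-equal counts in control replicates 1 and 3, with 2978 and 2980 counts in replicate 3. MiR-215-5p was clearly the higher in control replicate 2, at 4616 against 3377 counts, and in every irradiated library. The mean log2 ratio went from −0.13 ± 0.28 to −1.22 ± 0.19 (SD, n = 3 per group), a difference of −1.09 and an exact two-sided permutation p of 0.1. This is the smallest p that 3 against 3 libraries allow, and adjusted over the 4 pairs compared it was 0.133, so the design could not pass a threshold of 0.05. The difference ranged from −1.25 to −0.99 with any 1 library left out, and it was −1.30 without irradiated replicates 2 and 3.

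The ratio of miR-192-5p to miR-215-5p moved in the same direction. It was 5.94, 4.66 and 5.58 in control replicates 1, 2 and 3 and 1.86, 4.28 and 3.52 in irradiated replicates 1, 2 and 3. The groups did not overlap, and the lowest control and the highest irradiated library were close. The mean log2 ratio went from 2.42 ± 0.18 to 1.602 ± 0.63 (SD, n = 3 per group), a difference of −0.82 with an exact permutation p of 0.1 (0.133 adjusted over 4 pairs). Without irradiated replicate 1 the difference was −0.47, and leaving out irradiated replicates 2 and 3 gave −1.53. The ratios to miR-215-5p share that denominator, so they are not separate measurements.

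MiR-192-5p and miR-194-5p, which share the chromosome 19 cluster, had ratios that overlapped between the groups. Their ratio was 5.65, 6.37 and 5.58 in control replicates 1, 2 and 3 and 5.00, 8.90 and 7.92 in irradiated replicates 1, 2 and 3. The log2 difference was 0.27 with an exact permutation p of 0.4 (0.4 adjusted over 4 pairs). It was 0.52 without irradiated replicate 1, and it turned to −0.23 without irradiated replicates 2 and 3. The ratio of miR-192-5p to its own opposite strand also had groups that did not overlap, but it rests on 0 to 2 counts of miR-192-3p. Its log2 difference was −1.63 with 0.5 added to each count and −0.85 with 2 added (exact permutation p of 0.1 and 0.133 adjusted for the former), so its size follows the added count.

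**Figure D3:**
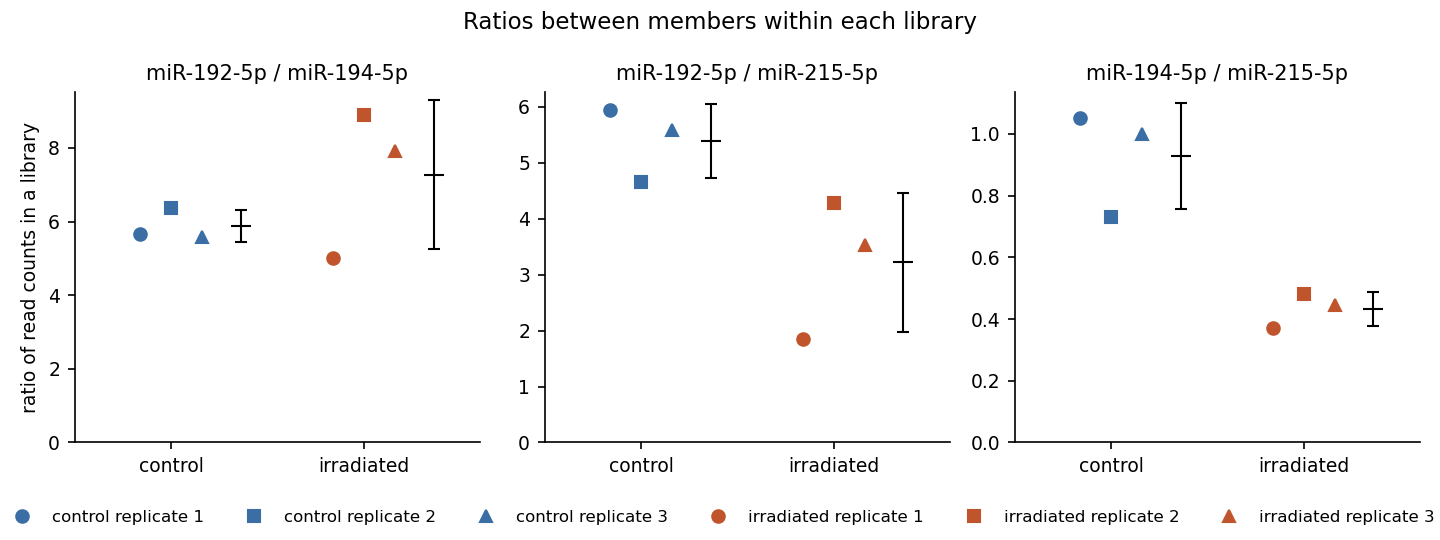
Ratio of read counts within each library (y axes, linear from 0) for 3 pairs of members in control and irradiated mice. Points are libraries and bars are mean ± SD (n = 3), and for both ratios to miR-215-5p the irradiated points lie below the control points.

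Read as a share of their common seed, miR-215-5p supplied 14.4%, 17.7% and 15.2% of the UGACCUA reads in control replicates 1, 2 and 3. It supplied 35.02%, 18.9% and 22.1% in irradiated replicates 1, 2 and 3. The 95% Wilson intervals are narrow, 34.3% to 35.8% in irradiated replicate 1 and 18.3% to 19.6% in irradiated replicate 2. Irradiated replicate 1 had the highest share, and all 3 irradiated shares lay above the control shares. The seed family as a whole, both miRNAs summed, was at 1715, 2425 and 2405 CPM in control and 2059, 1676 and 2191 CPM in irradiated libraries. Tested as a single feature it changed by −0.15 with an edgeR adjusted p of 0.613 (95% interval −0.69 to 0.40). The site that this seed pairs with in a messenger RNA is UAGGUCA.

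The other strands of the loci are rare, and none of the 3 passed. MiR-215-3p, from the hairpin of miR-215-5p, had 21, 55 and 25 counts in control and 53, 32 and 37 in irradiated replicates 1, 2 and 3. Its log2 fold change was 0.37 ± 0.39 (SE, edgeR adjusted p of 0.413), and it was 1.06 with irradiated replicate 1 as the only irradiated library. The ratio of miR-215-5p to miR-215-3p was 82.5, 83.9 and 119 in control and 104, 83.2 and 123 in irradiated replicates 1, 2 and 3 (exact permutation p of 0.6, 0.75 adjusted over the 5 pairs chosen after their values were seen). This ratio thus stayed between 82.5 and 123 in all 6 libraries.

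The opposite strands of miR-194 have reads that can be told apart by locus, 14 to 34 counts a library for both together. MiR-194-2-3p, from chromosome 19, had 7, 19 and 18 counts in control replicates 1, 2 and 3, and miR-194-1-3p, from chromosome 1, had 7, 15 and 11. The chromosome 19 strand was thus 57.1% of 77 counts (95% Wilson interval 46.01% to 67.6%). In irradiated replicates 2 and 3 the counts were 11 and 19 against 3 and 10. Irradiated replicate 1 was reversed, with 3 counts of miR-194-2-3p and 20 of miR-194-1-3p, or 13.04% (4.54% to 32.1%). This library also had the highest miR-215-5p, the other product of chromosome 1. Its miR-215-3p was the highest in scaled CPM (6.92, against 5.10 in control replicate 2) but not in unscaled CPM (6.12 against 7.11). The change of the ratio between groups was not larger than the spread (log2 difference −0.32, exact permutation p of 1, also 1 adjusted over 5 pairs), and it was 0.97 without irradiated replicate 1 and −2.89 without irradiated replicates 2 and 3. MiR-194-2-3p changed by −0.40 ± 0.56 (SE, edgeR adjusted p of 0.545) and miR-194-1-3p by 0.07 ± 0.62 (SE, edgeR adjusted p of 0.929). With irradiated replicate 1 as the only irradiated library they changed by −1.86 and by 1.24.

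**Figure D4:**
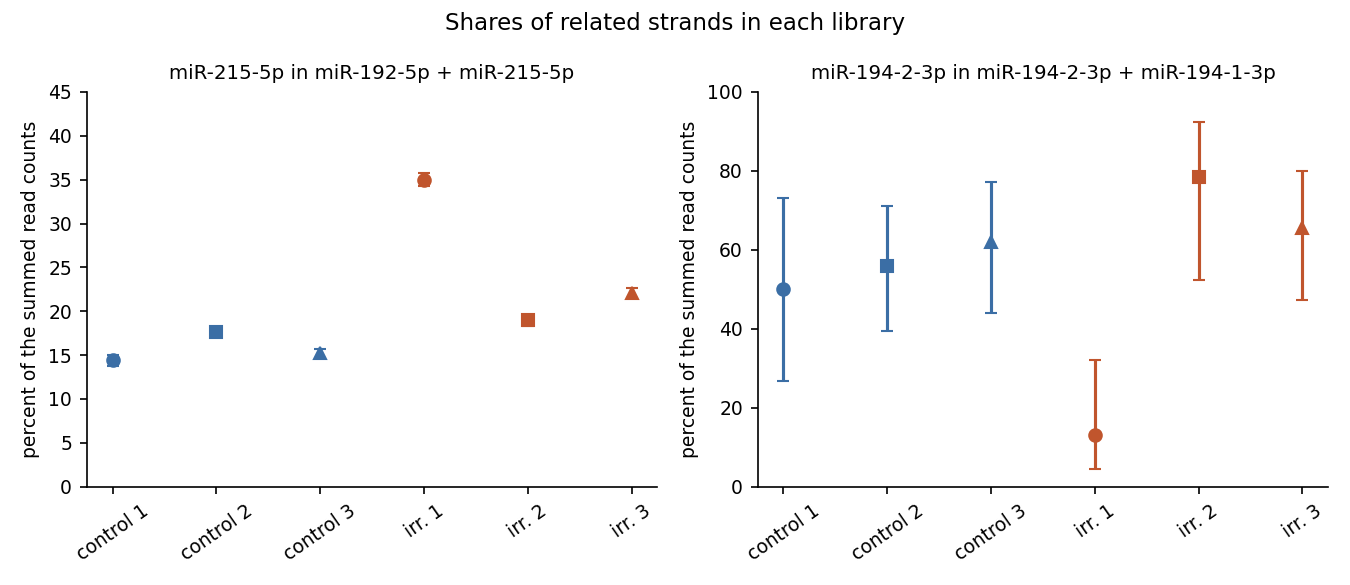
Left, the share of miR-215-5p in the summed counts of miR-192-5p and miR-215-5p (percent, axis to 45). Right, the share of miR-194-2-3p in the summed counts of both miR-194 opposite strands (percent, axis to 100). Points are libraries, bars are 95% Wilson intervals, and irradiated replicate 1 stands at 35.02% on the left and 13.04% on the right.

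By level the order in control libraries was miR-192-5p, miR-215-5p, miR-194-5p, miR-215-3p, miR-194-2-3p, miR-194-1-3p and miR-192-3p. MiR-215-5p (347 ± 92.1 CPM) and miR-194-5p (313 ± 52.8 CPM) did not differ beyond their spread in control, nor did the 2 opposite strands of miR-194. In irradiated libraries miR-215-5p and miR-194-5p did not overlap. How efficiently each miRNA is captured in a library was not measured, so levels of different miRNAs are read counts and not molecule numbers. The 4 members together held 0.162%, 0.382% and 0.274% of all counts in control replicates 1, 2 and 3 and 0.206%, 0.1796% and 0.244% in irradiated replicates 1, 2 and 3. The shares overlapped (exact permutation p of 0.5).

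The miRNAs listed as raised by p53, members left out, did not move one way. The test covered 14 of 16 listed, of which 4 passed as higher, 4 passed as lower and 6 failed it, against 27.7% higher and 33.5% lower of all tested miRNAs. The median log2 change was 0.58, beside 0.01 over all tested miRNAs. The higher ones were miR-34b-3p, miR-34c-5p, miR-34c-3p and miR-200c-3p. MiR-200c-3p is also 1 of the 4 higher epithelial miRNAs given below, whose summed level was higher in every irradiated library than in any control library, and its part in this count was not tested. The miR-34 family restrains the cell cycle and is the best-known group of p53 targets among miRNAs. The lower ones were miR-15a-5p (−2.24) and miR-16-5p (−2.48), which target Bcl2 and cyclins, and miR-16-1-3p (−2.12) and miR-107-3p (−0.72). In the same libraries 8 of 9 thymocyte and blood-cell miRNAs were lower (median −4.86), and their part in the lower ones was not tested. MiR-107-3p passed under only 7 of its 18 alternatives, with a highest edgeR adjusted p of 0.338. Among those that did not pass, miR-22-3p (0.55, edgeR adjusted p of 0.0509) passed under 9 of its 18 alternatives and miR-34b-5p (2.43, edgeR adjusted p of 0.0627) under 5 of 17. MiR-34a-5p, the best studied of its family, was at 0.01 (edgeR adjusted p of 0.980). Irradiated replicates 2 and 3 moved these changes. Without them, which leaves irradiated replicate 1 alone, the median log2 change was 0.95 and miR-34a-5p was at 0.94. With upper-quartile factors 9 passed as higher and 3 as lower, where 206 of all tested miRNAs passed as higher and fewer as lower.

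MiR-34c-5p was set beside the members within libraries, a comparison chosen after its values were seen. It had 0.251, 0.197 and 0.148 counts per count of miR-192-5p in control replicates 1, 2 and 3 and 1.39, 2.98 and 0.309 in irradiated replicates 1, 2 and 3. The groups did not overlap, and the log2 difference was 2.49 (exact permutation p of 0.1, 0.25 adjusted over 5 pairs). Against miR-194-5p it was 2.76 (exact permutation p of 0.1, 0.25 adjusted). Against miR-215-5p it was 1.66, the groups overlapped, and the exact permutation p was 0.2 (0.333 adjusted). Without irradiated replicate 2 these differences were 1.76, 1.86 and 0.69.

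Of the miRNAs listed as lowering p53 itself, all 5 were tested, and 4 were lower and 1 was higher, with a median log2 change of −1.82, against 33.5% lower and 27.7% higher of all tested miRNAs. The thymocyte and blood-cell miRNAs fell in the same libraries (8 of 9 lower, median −4.86), and their part in this count was not tested. MiR-25-3p changed by −3.33, miR-33-5p by −2.42, miR-30d-5p by −1.82 and miR-504-5p by −0.94. MiR-125b-5p, also in the stromal and vascular list, rose by 0.79. MiR-504-5p passed under 6 of its 17 alternatives and miR-125b-5p under 13 of 18.

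**Figure D5:**
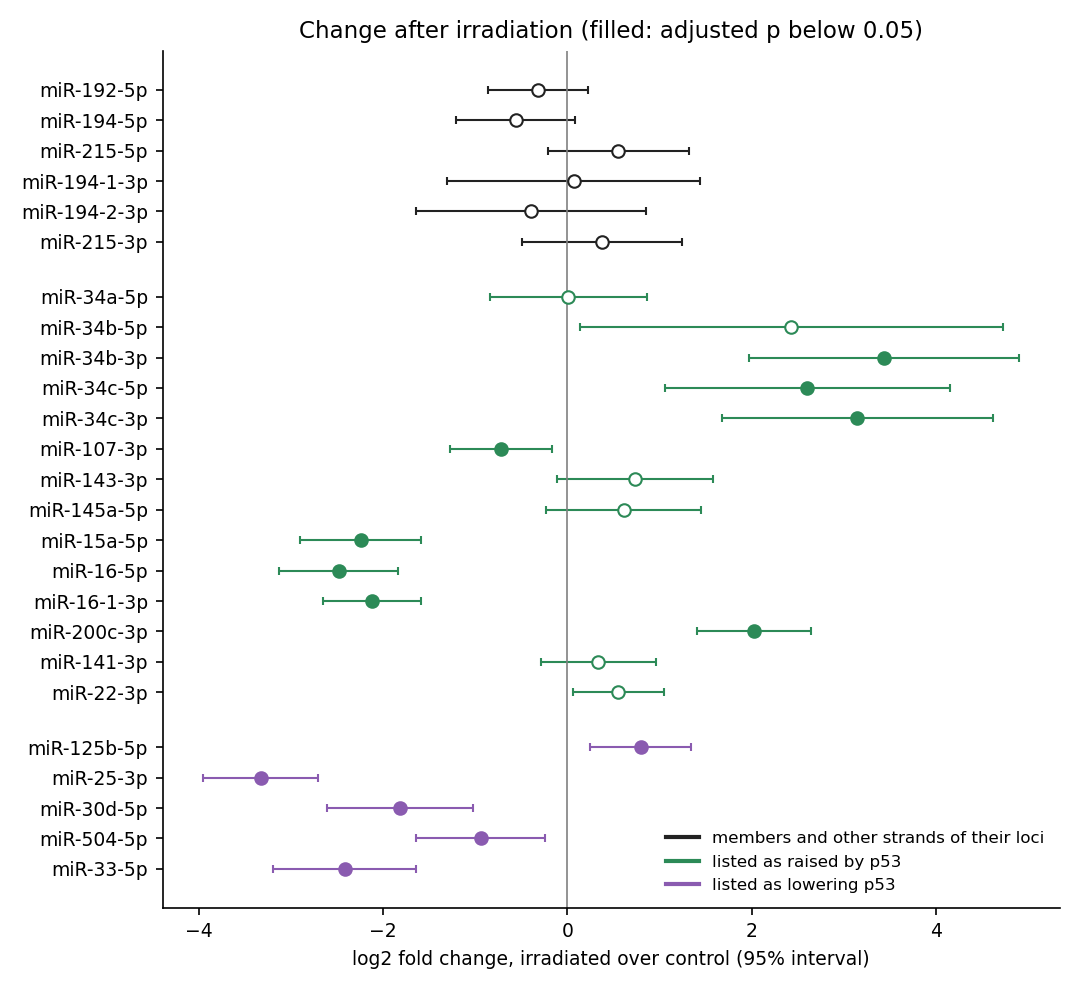
Log2 fold change of irradiated over control with its 95% interval (x axis) for the tested members and other strands of their loci (black), miRNAs listed as raised by p53 (green) and as lowering p53 (purple). Filled points have an edgeR adjusted p under 0.05, and each of the 6 black intervals includes 0.

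MiRNAs of other tissues and cell types were read beside the members, and the share of all tested miRNAs that were higher was 27.7%. Of the miRNAs of liver, pancreas and kidney, 6 of 9 were tested and 3 were higher (miR-122-5p, miR-204-5p and miR-217-5p). The summed level was 955 to 1416 CPM in control and 1114 to 1445 CPM in irradiated libraries. Most of that sum was miR-375-3p, at 895 to 1353 CPM in control and 951 to 1301 CPM in irradiated libraries (log2 change 0.03). The liver miRNA miR-122-5p was near the detection limit, at 0.368 to 1.28 CPM in control and 1.96 to 4.89 CPM in irradiated libraries. Of 8 epithelial miRNAs 4 were higher, and their summed level was 10198 to 13183 CPM in control and 20688 to 28834 CPM in irradiated libraries, highest in irradiated replicate 1. Of 11 stromal and vascular miRNAs 8 were higher (99036 to 250184 CPM against 233054 to 353391 CPM). MiR-143-3p, which did not pass, made up most of that sum (84152 to 232297 CPM against 184424 to 295686 CPM). Of 4 red-cell miRNAs 3 were higher (483 to 731 CPM against 608 to 5101 CPM), and of 4 myeloid miRNAs 1 was higher (34.2 to 61.3 CPM against 50.8 to 165 CPM). All 3 tested muscle miRNAs were higher. These calls depended on the processing. With library totals or limma-voom, 0 of the 4 red-cell and 1 of the 3 muscle miRNAs passed as higher. With median-of-ratios or upper-quartile factors, all 4 and all 3 did. Without irradiated replicates 2 and 3, the median log2 change was 1.44 for epithelial and 1.47 for stromal miRNAs. It was then 0.13 for red-cell and 1.27 for muscle miRNAs, against 3.01 and 4.85 with all libraries. For thymocyte and blood-cell miRNAs it was −4.05. No miRNA of these lists was at 0 in all libraries. The part of these cell types in the members' levels was not tested.

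The miRNAs most like miR-192-5p over the 6 libraries were found by the root mean square difference of log2 levels, each centred on its own mean. They were miR-155-5p (0.145), miR-12182-3p (0.146), miR-345-3p (0.163), miR-30b-3p (0.168) and miR-872-5p (0.174), out of 513 compared with a median difference of 0.784. Because miR-192-5p itself varied little, this measure favours miRNAs that also varied little. MiR-12182-3p was rare, at 1.57 to 2.82 CPM. Whether a shared cell type underlies the likeness was not tested. MiR-155-5p, a miRNA of activated immune cells, was at 205, 307 and 260 CPM in control replicates 1, 2 and 3 and the irradiated replicates 1, 2 and 3 stood at 196, 234 and 280.2 CPM. MiR-194-5p stood at rank 26 (0.294) and miR-215-5p at rank 149 (0.559).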

How the data were processed

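MiRNA counts of thymus tissue were compared between 3 irradiated and 3 control libraries. The deposited table holds whole-number read counts per mature miRNA, per the file headers. The authors' TPM values are those counts divided by the library total, scaled to a fixed sum with no length term, and differed from recomputed values by at most 4.61e-05. The authors' deposited log2 fold changes and p-values come from their own comparison, and the submitters' processing notes name DESeq2 1.10.1. Which aligner, counter and genome build were used is not stated in the labels or file headers. The labels call the molecule polyA RNA and name an RNA library kit (NEB Ultra), and they describe no small-RNA step. A further 6 count columns that match no label were not used.

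The main test was that of edgeR 4.0.16 under R 4.3.3 (TMM factors, filterByExpr defaults, robust quasi-likelihood test), and p-values were adjusted by Benjamini-Hochberg over all 519 tested miRNAs, with a threshold of 0.05. Intervals come from the SE and the test's degrees of freedom. Ratios used log2 of counts with 0.5 added and exact two-sided permutation tests over libraries. The fits were tested on simulated data. No library was identical to another (0 identical pairs). The labels do not pair same-numbered libraries. Alternatives were other scalings and filters, DESeq2 1.42.0, limma-voom (limma 3.58.1), the replicate block, known miRNAs only, summed seed partners, no miR-21a-5p, and each library left out. Leaving out irradiated replicates 2 and 3, and 5 further ratios, were added after seeing the data. The members and lists were chosen with earlier results of these data known. Named miRNAs were the members, their loci's other strands, both p53 lists and the 5 most like miR-192-5p by profile. MiR-1a-3p, miR-133a-3p, miR-206-3p, miR-122-5p, miR-204-5p, miR-217-5p, miR-375-3p, miR-181a-5p and miR-150-5p were named after their values were seen. Sequences and positions come from RefSeq GRCm38.p6 (all 7 mature and 4 hairpin sequences matched the table) and GENCODE M21.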

Additional observations from a re-analysis of the deposited data

How the results depend on the processing

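MiR-194-5p was negative under all 18 alternatives and miR-215-5p positive under all 17. MiR-192-5p was negative under 17 of 18, counting the fit in which it was summed with miR-215-5p. The members' calls depended on scaling, filter and single libraries. Other scalings moved the median log2 change over all miRNAs in the test from 0.01 to 0.44 (upper-quartile factors), 0.22 (without miR-21a-5p), 0.12 (median of ratios) and −0.13 (library totals), and the minimum of 10 CPM moved it to −0.19, so member changes under them are relative to those shifts. With upper-quartile factors miR-192-5p turned to 0.12 and miR-194-2-3p to 0.027, and miR-215-5p passed at 1.03. With a mean of at least 10 CPM, 210 miRNAs passed of 313 tested (87 higher, against 144), and miR-192-5p (−0.58) and miR-194-5p (−0.82) passed. Without irradiated replicates 2 and 3, which leaves irradiated replicate 1 alone, miR-215-5p was at 1.26.

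MiR-194-1-3p turned to −0.12 with library totals, −0.30 in limma-voom and −0.15 with the replicate block. MiR-34a-5p turned to −0.20 with library totals, −0.030 with no filter, −0.24 with at least 10 CPM, −0.15 in limma-voom and −0.15 with the block. The cause of these changes was not tested.

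With any 1 library left out, log2 changes ranged from −0.38 to −0.06 for miR-192-5p, −0.76 to −0.16 for miR-194-5p, 0.21 to 1.00 for miR-215-5p, −0.79 to 0.72 for miR-194-1-3p and −0.61 to 0.41 for miR-34a-5p. The ratio of miR-215-5p to miR-215-3p ranged from −0.0032 to 0.30 and that of miR-194-2-3p to miR-194-1-3p from −1.17 to 0.97. Counts of called miRNAs ranged from 266 to 374.

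With the replicate number as a block the members changed by −0.32, −0.59 and 0.50 (edgeR adjusted p of 0.195, 0.126 and 0.320), and 298 miRNAs passed, against 318. Deviations of same-numbered libraries correlated at 0.0994, −0.0244 and 0.230, and those of differently numbered libraries at −0.254 to 0.108. These values do not decide whether the numbers are pairs. The numbers were not taken as pairs because the labels do not pair them. Depth limits the opposite strands, with 0 to 55 counts a library.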
